A study of Homo sapiens with 15 samples.

Results

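The genes described here encode the subunits of the mitochondrial respiratory chain and of ATP synthase that are made from nuclear DNA. They were taken by symbol from the deposited gene tables: NDUFA, NDUFB, NDUFC, NDUFS and NDUFV genes with a number, UQCR genes, ATP5 genes, COX4 to COX8 genes, and SDHA, SDHB, SDHC and SDHD. With 1 pseudogene symbol dropped, 87 of 20806 gene entries met the rule, and 81 of the 87 passed the filter on low counts that left 14246 genes for testing. The rule reads symbols and no measured value. Of the 81 tested genes 36 belong to complex I, 4 to complex II, 9 to complex III, 14 to complex IV and 15 to ATP synthase. The remaining 3, COX4NB (now EMC8), ATP5S (now DMAC2L) and ATP5SL (now DMAC2), meet the rule by their older symbols but encode proteins that are not subunits.

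RNA was sequenced from C4-2 cells, a castration-resistant prostate cancer line, in 5 lines with 3 libraries each. Scramble is the control, and KO lacks ATGL, the lipase encoded by PNPLA2 that starts the breakdown of stored triglyceride. KO_WT, KO_S47A and KO_S404A are the knockout with wild-type ATGL, with S47A, a form without lipase activity, or with S404A added back, so all 4 carry the knockout. The medium held 5 mM glucose and 5% dialyzed serum. Neither the clonal origin of the lines nor the promoter of the added-back gene was given in the sources used here. The labels do not tie the 3 libraries of a line to separate cultures. A p-value therefore reflects the spread among these libraries alone, and that spread may be technical.

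In the inner mitochondrial membrane, complex I takes electrons from NADH and complex II from succinate. Complex III passes them to cytochrome c and complex IV to oxygen, and complexes I, III and IV pump protons that ATP synthase lets flow back as it makes ATP. Fatty acids reach this chain through beta-oxidation. A few catalytic core subunits are made in the mitochondrion from mitochondrial DNA, of which 0 genes were measured in these tables, while the rest are imported.

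Counts in genes ran from 40846694 to 64345775 per library. PNPLA2 stood at 45.3 to 54.3 CPM, read counts scaled to library size by TMM, in Scramble, 9.11 to 13.0 in KO, 207 to 241 in KO_WT, 110 to 164 in KO_S47A and 303 to 493 in KO_S404A. All 9 luminal prostate markers were expressed, with a summed level of 7884 to 8216 CPM in Scramble and 5570 to 7505 in the other 12 libraries. The basal markers KRT5 and TP63 had 0 counts in every library, and KRT14, the other basal marker, was at 4.25 to 4.63 CPM in Scramble and 1.38 to 2.45 in the other lines. Striated muscle markers summed to 0.0391 to 0.565 CPM over the libraries. Neuroendocrine markers summed to 5.16 to 7.68 CPM, with SYP at 2.66 to 4.44 and ENO2 at 1.91 to 4.10. Markers of stroma, endothelium and blood summed to 14.9 to 37.9 CPM. Of these COL1A1 was at 9.76 to 23.2 CPM and VWF at 5.06 to 14.7.

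The 87 genes together took 1.49% to 1.83% of the gene counts of a library, and their levels spanned more than the differences between lines. ATP5B, the catalytic beta subunit of ATP synthase, was the highest per length at 1239 CPM per kilobase over the 15 libraries, from 1286 ± 28.7 in Scramble to 1189 ± 9.63 in KO_S404A (mean ± SD, n = 3). ATP5A1, the alpha subunit of the same head, was at 302. In complex I NDUFB7, a small accessory subunit, was highest at 559 CPM per kilobase and NDUFA11, an accessory subunit of the membrane arm, lowest at 2.43. The core subunits NDUFV1, which binds NADH, and NDUFS1, which carries iron-sulfur clusters, were at 100 and 51.1. In complex II the membrane anchor SDHD was highest at 163 CPM per kilobase. SDHB, the iron-sulfur subunit, was at 108, the anchor SDHC at 58.7 and the flavoprotein SDHA, the subunit that oxidises succinate, lowest at 52.1. In complex III UQCRH, the hinge protein, was at 662 CPM per kilobase, the core protein UQCRC1 at 197 and the Rieske protein UQCRFS1 at 164. In complex IV COX7C, a small membrane subunit, was highest at 885 CPM per kilobase. The lowest levels per length in complex III and ATP synthase were those of UQCRHL, a near-identical copy of UQCRH, at 17.1 and of ATP5I at 14.9. Reads that overlapped more than 1 gene made up 2.02% to 2.18% of each library and were counted for no gene. The levels of genes that overlap another gene are therefore uncertain. NDUFB8, ATP5O, ATP5I and NDUFA11 were low per length, and whether they overlap another gene was not checked. The levels of UQCRH and UQCRHL are uncertain as well, since near-identical copies can share reads, which this percentage does not give.

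Complex IV has copies restricted to some tissues, and 5 of them were near 0. COX4I2, COX6A2, COX6B2, COX7A1 and COX8C had 1, 0, 30, 36 and 10 counts in all 15 libraries together, and with ATP5L2, at 2 counts, they are the 6 genes that did not pass the filter. Their common forms were abundant: COX4I1 at 229 CPM per kilobase, COX6A1 at 801, COX6B1 at 647, COX7A2 at 501 and COX8A at 695. COX7A2L, a copy that serves in the joining of complexes III and IV, was at 58.7, and it made up 8.48% to 12.5% of the COX7A2 and COX7A2L signal per length. The 3 genes of the ATP synthase c subunit, which encode the same mature protein, shared its signal per length with 46.5% to 52.4% from ATP5G1, 27.5% to 36.2% from ATP5G2 and the rest from ATP5G3. NDUFA4 (now COXFA4), a complex IV subunit despite its name, was at 279 CPM per kilobase, and NDUFA4L2, its hypoxia-induced copy, at 2.63, the lowest of the complex IV genes tested.

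Within a line the median SD of log2 CPM between the 3 libraries was 0.14 over the 81 genes, beside 0.22 over all genes tested. ATP5B had the lowest value of the 81 at 0.06 and NDUFA4L2 the highest at 1.14, ahead of COX7B2 at 0.29. By complex the median was 0.09 in complex II, 0.13 in complex I and ATP synthase, 0.15 in complex III and 0.19 in complex IV.

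A pair of libraries stood apart. KO library 1 and KO_S404A library 2 stood low across the whole group of genes, each with 71 of the 81 below their own mean over the 15 libraries, against 46.1% and 46.9% of all genes tested. The median deviation of the 81 genes was -0.15 on the log2 scale in KO 1 and -0.34 in KO_S404A 2, and in the other 13 libraries it lay between -0.10 and 0.12. KO_S47A 2 came next, at -0.10, with 64 of the 81 below their mean. KO_S404A 2 was the lowest of the 15 libraries for 53 of the 81 genes, while it was the lowest for 13.0% of all genes. The median deviation there was -0.41 in complex III, -0.39 in complex IV, -0.35 in ATP synthase, -0.31 in complex I and -0.17 in complex II.

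**Figure D1:**
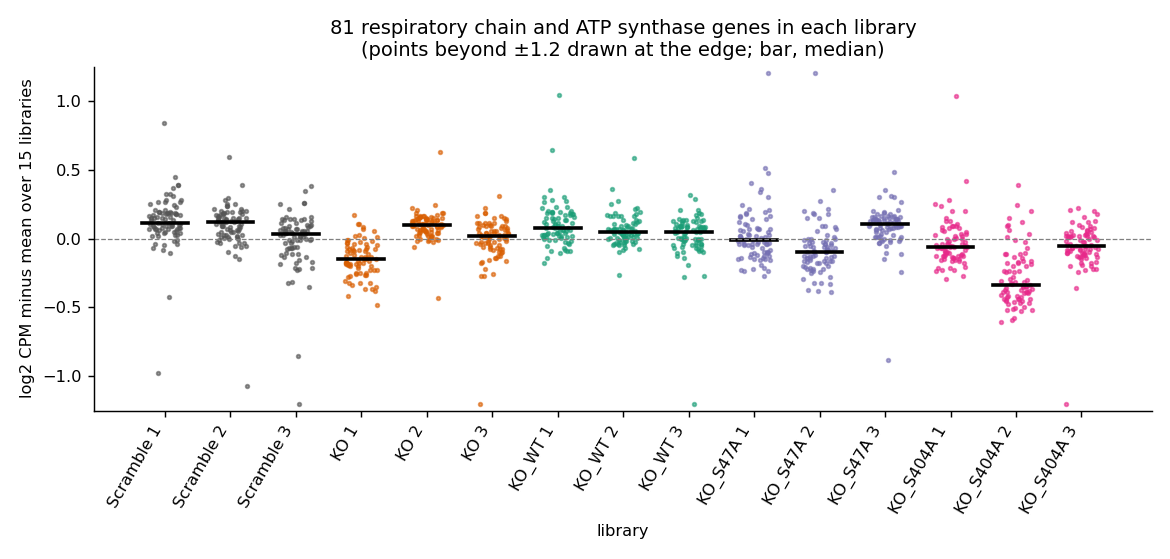
Deviation of log2 CPM from each gene's mean over the 15 libraries (y axis) for the 81 tested genes in each library (x axis), with 1 point per gene and a bar at the median. The medians of KO 1 at -0.15 and of KO_S404A 2 at -0.34 lie below those of the other 13 libraries.

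These 2 libraries also differed in gene length. The mean gene length weighted by counts was 3827 bases in KO 1 and 3886 in KO_S404A 2, against 3543 to 3727 in the other 13, and many of the 81 genes are short, with 37 under 1 kb. Among all genes tested, those under 1 kb had a median deviation of -0.15 in KO 1 and -0.28 in KO_S404A 2, and those of 4 kb or more had 0.09 and 0.13. The respiratory genes under 1 kb stood at -0.18 and -0.38 in these libraries, and the 18 of 2 to 4 kb at -0.09 and -0.16, where all genes of that length had 0.00 in both. When the trend with length was removed in each library, the median of the 81 genes was -0.03 in KO 1 and -0.11 in KO_S404A 2. KO_S47A 2, KO_S404A 1 and KO_S404A 3 were then below KO 1, at -0.07, -0.06 and -0.04. Unassigned reads made up 13.2% of KO_S404A 2, the lowest share of the 15, and 15.8% of KO 1, within the range of 15.5% to 20.6% of the other 13. Results that follow are also given without both libraries. This fit was added after the low values of the 81 genes in them were seen, so its change was partly set by that choice. It does not measure the part of a library difference.

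**Figure D2:**
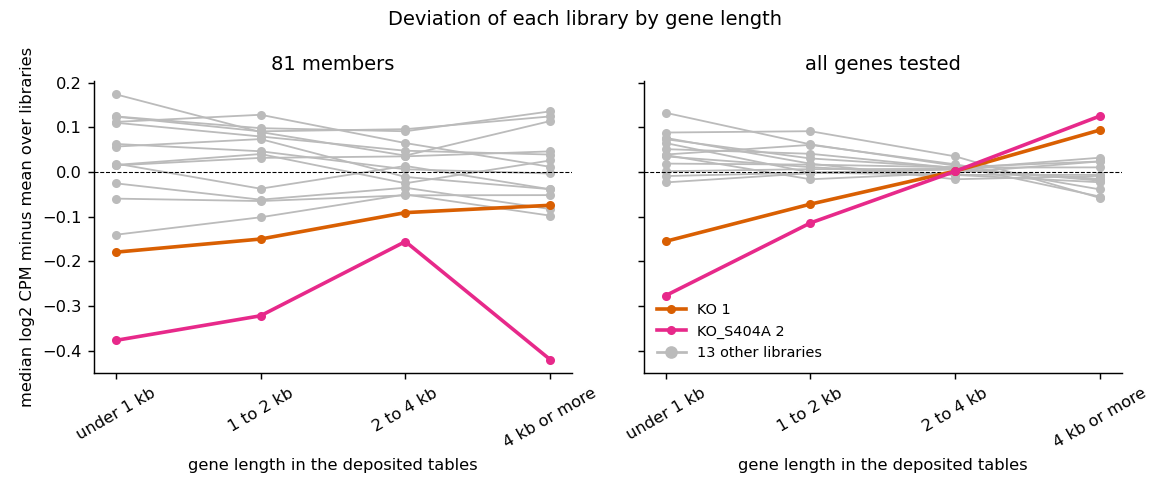
Median deviation of log2 CPM from the mean over libraries (y axis) by class of gene length (x axis), with 1 line per library, for the 81 respiratory genes (left) and all genes tested (right). KO 1 and KO_S404A 2 rise with length among all genes, from -0.15 and -0.28 under 1 kb to 0.09 and 0.13 at 4 kb or more, and the 5 respiratory genes in the longest class do not follow this in KO_S404A 2, at -0.42.

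Loss of ATGL was examined first as KO against Scramble. Of the 81 genes 1 was called at an adjusted p under 0.05 in edgeR's quasi-likelihood test, where 2.69% of all genes tested were called. The gene was COX7B2, a testis-enriched copy of the complex IV subunit COX7B, and it rose. Its level was 3.00, 2.82 and 2.46 CPM in the Scramble libraries and 5.22, 9.24 and 6.19 CPM in the KO libraries, so that every KO library was above every Scramble library. The log2 difference was 1.32 (SE 0.23, adjusted p = 0.0066), a 2.50-fold higher level. The same gene stood at 9.31, 8.97 and 7.43 CPM in KO_WT, 8.50, 6.86 and 8.35 in KO_S47A, with 7.97, 4.52 and 6.13 in KO_S404A. All 12 knockout-derived libraries were thus above the 3 Scramble libraries, and the level of COX7B2 in the lines with added-back ATGL overlapped that in KO.

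The common copy COX7B was not called. It stood at 145, 133 and 120.1 CPM in Scramble and 96.9, 121 and 117 in KO, ranges that overlap. Per gene length COX7B2 made up 1.44% to 1.49% of the COX7B and COX7B2 signal in Scramble and 3.63% to 5.17% in the other 12 libraries. COX7B2 thus stayed the minor copy in each library. Summed luminal markers and KRT14 were also apart between Scramble and the other lines, as given above, and their part in the COX7B2 difference was not tested. In cell populations such as these, fewer cells of a type and less RNA per cell cannot be told apart.

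The stretches upstream of both genes are shown because the copies differ in where they are transcribed. COX7B2 (Entrez gene 170712) lies on chromosome 4 and COX7B (Entrez gene 1349) on chromosome X. The sequences are the 180 bases before the start in RefSeq, build GRCh38.p14, read 5′ to 3′ on the gene's strand: chr4:46909246-46909425 on the minus strand and chrX:77899288-77899467 on the plus strand. Both were searched on both strands for CCGGAAG, the core bound by ETS factors such as GABP, for the palindromic core of NRF1 sites, and for TATAAA. Capitals mark matches.
COX7B2: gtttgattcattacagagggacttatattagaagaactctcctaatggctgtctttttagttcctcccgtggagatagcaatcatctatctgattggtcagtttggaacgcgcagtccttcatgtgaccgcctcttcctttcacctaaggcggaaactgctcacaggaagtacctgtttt
COX7B: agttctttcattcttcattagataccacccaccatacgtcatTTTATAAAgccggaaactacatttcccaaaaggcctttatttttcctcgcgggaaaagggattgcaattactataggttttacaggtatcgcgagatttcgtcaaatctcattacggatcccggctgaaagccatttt
COX7B holds 2 matches to TATAAA that overlap, 1 on each strand, and no match to the other letters. The stretch of COX7B2 holds none of the 3.

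The other 80 genes stayed under the threshold in KO against Scramble. The 81 genes had a median log2 difference of -0.10, with 66 lower and 15 higher in KO, beside a median of 0.02 over all genes tested, of which 46.0% were lower. The median was -0.18 in complex IV, where 13 of 14 were lower, -0.13 in complex III with 8 of 9, -0.10 in ATP synthase with 14 of 15, -0.08 in complex I with 28 of 36 and -0.01 in complex II with 2 of 4. Without KO 1 the median of the 81 was -0.02, without KO 2 it was -0.15, and without both KO 1 and KO_S404A 2 it was -0.03, with COX7B2 still the 1 gene called. Besides COX7B2 the highest log2 differences were those of NDUFA11 at 0.10, ATP5SL at 0.09, the complex I core subunit NDUFS3 at 0.06 and NDUFV3 at 0.06. The lowest were those of NDUFA4L2 at -0.88, UQCR10 at -0.38, COX7A2 at -0.34, COX6C at -0.31 and NDUFA6 at -0.30. An unadjusted p under 0.05 was found for 3 of the 81, 3.7% against 12.8% of all genes. The library ranges of 9 were apart, 11.1%, against 20.7% of all genes tested.

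With the library number as a block, 3 genes were called in KO against Scramble, where 8.29% of all genes were. These were COX7B2 with a log2 difference of 1.33 (adjusted p = 0.0017), UQCR10 with -0.38 (adjusted p = 0.016) and NDUFA4L2 with -0.84 (adjusted p = 0.0248), in edgeR's blocked fit. UQCR10 is a small subunit of complex III, and on the libraries numbered 1 and 2 alone it had -0.44 (adjusted p = 0.0294). DESeq2 called COX7B2 alone, where 4.86% of all genes were called.

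Setting the mean of the 4 knockout-derived lines against Scramble uses all 15 libraries. The 4 lines are not independent, since 3 of them are the knockout with ATGL added back. PNPLA2 was higher than in Scramble in this comparison, by 1.14 on the log2 scale (SE 0.17). The comparison called 3 of the 81 genes, COX7B2 higher and UQCR10 and NDUFB4 lower, where 6.16% of all genes tested were called. COX7B2 had a log2 difference of 1.41 (SE 0.20, adjusted p = 0.000617). The median of the 81 was -0.09, with 67 lower, beside 0.02 over all genes. Complex III, with 9 of 9 lower, had the lowest median at -0.18.

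UQCR10 stood at 164, 164 and 163 CPM in Scramble. It was at 113, 129 and 136 in KO, 121, 126 and 133 in KO_WT, 107, 99.8 and 137 in KO_S47A, with 104, 93.9 and 116 in KO_S404A. The highest of the 12 knockout-derived libraries was below the lowest Scramble library. The log2 difference was -0.48 (SE 0.09, adjusted p = 0.00533), and -0.45 without both KO 1 and KO_S404A 2 (adjusted p = 0.0109). NDUFA6, an accessory subunit of complex I, is the other tested gene of the group on chromosome 22 in RefSeq. Its level was 156, 144 and 159 CPM in Scramble, 104, 133 and 136 in KO, 125, 125 and 142 in KO_WT, 112, 95.5 and 145 in KO_S47A, with 107, 82.9 and 139.7 in KO_S404A. Library 3 of KO_S47A overlapped the Scramble range, and the log2 difference of -0.35 (SE 0.14) did not pass at an adjusted p of 0.192. Chromosome 22 as a whole stood lower in this comparison. Its 370 tested genes had a median log2 difference of -0.34 and genes elsewhere 0.02, and in KO against Scramble the medians were -0.32 and 0.03. The part of the chromosome in the values of UQCR10 and NDUFA6 was not tested. Without these 2 genes the median of the group was -0.09.

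NDUFB4, an accessory subunit in the membrane arm of complex I, was at 605, 605 and 595 CPM in Scramble. Its levels were 519.7, 560.2 and 566 in KO, 538, 543 and 565 in KO_WT, 486, 462 and 532 in KO_S47A, with 472, 471 and 502 in KO_S404A. All 12 libraries lay below the Scramble range. COX7B2, UQCR10 and NDUFB4 were the 3 of the 81 genes with all 12 libraries apart from Scramble, 3.70% against 6.66% of all genes tested. The log2 difference was small, -0.22 (SE 0.06, adjusted p = 0.0457), and the call was lost in 12 of the 15 fits that left out 1 library, with adjusted p from 0.0235 to 0.174. Without both low libraries the difference was -0.21 (adjusted p = 0.0523).

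**Figure D3:**
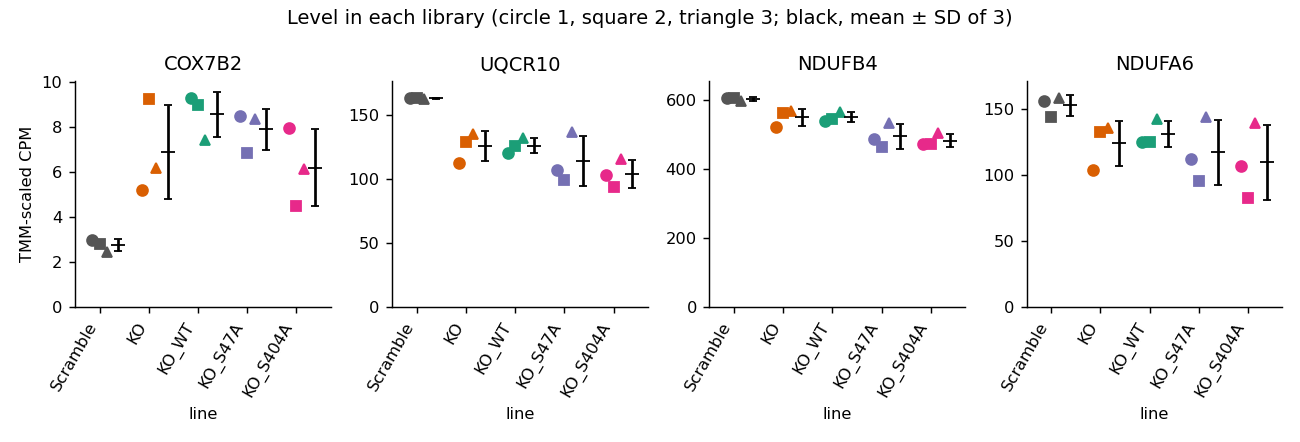
Level of COX7B2, UQCR10, NDUFB4 and NDUFA6 in TMM-scaled CPM (y axis) in the 3 libraries of each line (x axis), with the mean ± SD in black. COX7B2 is higher and UQCR10 and NDUFB4 are lower in all 12 knockout-derived libraries than in the 3 Scramble libraries, while NDUFA6 overlaps. Such separation was found for 3.70% of the 81 genes and 6.66% of all genes tested.

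The upstream stretches of both genes that fell are shown with the same search, UQCR10 (Entrez gene 29796) at chr22:29767189-29767368 and NDUFB4 (Entrez gene 4710) at chr3:120596156-120596335, both on the plus strand of GRCh38.p14. Capitals mark the NRF1 core.
UQCR10: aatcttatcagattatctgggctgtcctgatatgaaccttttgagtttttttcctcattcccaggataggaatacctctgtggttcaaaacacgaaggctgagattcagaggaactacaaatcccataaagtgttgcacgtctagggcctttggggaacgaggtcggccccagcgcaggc
NDUFB4: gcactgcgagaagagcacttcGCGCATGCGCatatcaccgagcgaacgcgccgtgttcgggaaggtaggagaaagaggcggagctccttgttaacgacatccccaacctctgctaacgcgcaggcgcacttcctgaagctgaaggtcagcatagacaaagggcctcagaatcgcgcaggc
NDUFB4 holds 1 match to the NRF1 core, and UQCR10 holds no match to the 3 sets of letters in this stretch.

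Below the threshold in this comparison, NDUFA11 had the highest log2 difference after COX7B2, at 0.32, followed by ATP5S at 0.10, NDUFA2 at 0.05 and NDUFB9 at 0.04. After UQCR10 and NDUFA6 the lowest were ATP5I at -0.28, NDUFB8 at -0.27 and UQCRHL at -0.25. DESeq2 called 5, where 9.25% of all genes were: the 3 above, NDUFS6, an accessory subunit of complex I, and UQCRC2, a core protein of complex III. Other subunits stood at -0.07 for ATP5B, -0.07 for SDHA, -0.09 for COX4I1 and -0.14 for SDHB.

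A test for any difference among the 5 lines called 2 of the 81 genes, COX7B2 (adjusted p = 0.00915) and UQCR10 (adjusted p = 0.0471), where 2.37% of all genes were called. Without KO 1 and KO_S404A 2 only COX7B2 was called. DESeq2 called 7, where 7.55% were, namely COX7B2, UQCR10, NDUFB4, ATP5J, NDUFS6, UQCRC2 and the complex I subunit NDUFC1.

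Without the block no respiratory gene was called in any of the 3 lines with added-back ATGL against KO, and with the block 7 were called in KO_S47A. In KO_WT against KO 0 of the 81 were called, where 0.0281% of all genes were, 0 had an unadjusted p under 0.05, where 7.58% of all genes had, and DESeq2 called 0, where 0.0562% were. The median log2 difference was 0.07, with 64 higher, beside 0.00 over all genes. It was 0.00 without KO 1 and 0.13 without KO 2. All 14 complex IV genes were higher in KO_WT, with a median of 0.21. The highest differences were those of NDUFA4L2 at 0.83, COX6A1 at 0.36, NDUFB1 at 0.32, COX7B2 at 0.31 and COX7A2L at 0.27. Among the lowest were those of ATP5D at -0.15, COX4NB at -0.13, SDHA at -0.12 and ATP5SL at -0.12. UQCR10 differed by 0.01 (SE 0.12) and NDUFB4 by 0.00 (SE 0.08). SDHA was at 227, 226 and 231 CPM in KO and 204, 210.3 and 217 in KO_WT, 1 of 9 genes, 11.1%, whose ranges were apart, against 15.5% of all genes.

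In KO_S47A against KO 0 of the 81 were called by edgeR, where 0.00702% of all genes were, and 0 by DESeq2, where 0.232% were. An unadjusted p under 0.05 was found for 7, with NDUFA11, COX6A1, COX7A2, COX7A2L, ATP5S and NDUFB9 higher and NDUFS6 lower, 8.64% of the 81 against 16.8% of all genes. The median was -0.01 beside 0.01 over all genes. It was -0.08 without KO 1, 0.04 without KO 2, 0.04 without KO_S47A 2, 0.01 without KO_S47A 1 and -0.06 without KO_S47A 3, so its sign depended on single libraries. In complex IV 12 of 14 were higher, with a median of 0.18. The highest differences were those of NDUFA4L2 at 1.32, NDUFA11 at 0.49, COX6A1 at 0.46, COX7A2 at 0.45 and COX7A2L at 0.43. The lowest were those of UQCRHL at -0.24, ATP5D at -0.24, NDUFS6 at -0.22, UQCRFS1 at -0.22 and COX4NB at -0.22. COX6A1, the non-muscle form of a complex IV subunit, was at 334, 423 and 355 CPM in KO and 550.3, 498 and 480.0 in KO_S47A, with no overlap. It was also at 515, 437 and 336 in Scramble, which overlaps both. Library ranges of KO and KO_S47A were apart in 11.1% of the 81 genes, 6 higher and 3 lower, against 21.9% of all genes tested.

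With the block 7 genes were called in KO_S47A against KO, where 22.1% of all genes were. They were NDUFA4L2 at 1.21 (adjusted p = 0.00415), NDUFA11 at 0.49, COX6A1 at 0.45, COX7A2L at 0.40, ATP5S at 0.37, NDUFB9 at 0.30 and COX4NB at -0.22, and the other adjusted p-values ran from 0.0347 to 0.048. On the libraries numbered 1 and 2 alone NDUFA4L2 had 1.44 (adjusted p = 0.00451). The 7 genes are 8.64% of the 81, below the share of all genes.

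In KO_S404A against KO 0 of the 81 were called by edgeR, where 0.0211% of all genes were, and 0 by DESeq2, where 0.0562% were. An unadjusted p under 0.05 was found for 3, ATP5J, NDUFB4 and UQCR10, all lower, 3.7% of the 81 against 4.08% of all genes. The median was -0.11, with 66 lower, beside 0.01 over all genes, and both groups hold 1 of the low libraries. It was -0.18 without KO 1, -0.06 without KO_S404A 2 and -0.11 without both. The highest differences were those of NDUFA4L2 at 0.82, NDUFA11 at 0.26, COX6A1 at 0.10, COX7A2L at 0.09 and ATP5S at 0.09. The lowest were those of NDUFB8 at -0.28, UQCRHL at -0.28, UQCR10 at -0.27, ATP5J at -0.27 and UQCRFS1 at -0.26. These 3 add-back comparisons share the KO libraries, so KO 1 enters each of them.

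**Figure D4:**
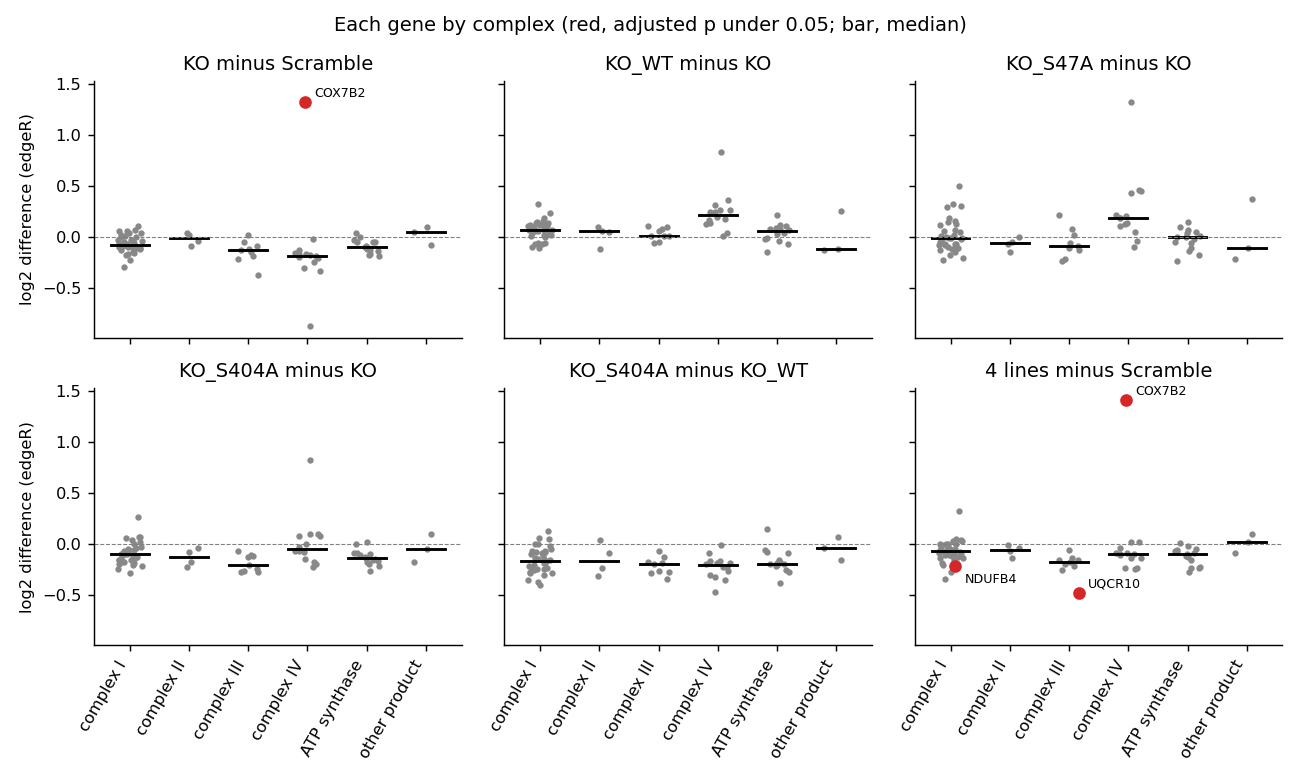
Log2 difference of each of the 81 genes (y axis) by complex (x axis) in 6 comparisons, with a bar at the median and red points for genes called at an adjusted p under 0.05. COX7B2 is called in KO minus Scramble, COX7B2, UQCR10 and NDUFB4 in the mean of 4 lines minus Scramble, and no gene in the other 4 comparisons.

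The 3 added-back lines were also compared among themselves. KO_WT and KO_S47A differ in the lipase activity of the added protein. PNPLA2 also stood higher in KO_WT, by 0.77 on the log2 scale (SE 0.19), though edgeR did not call it (adjusted p = 0.998). Activity and level cannot be told apart. In KO_WT against KO_S47A 0 of the 81 were called by edgeR, where 0% of all genes were, and 0 by DESeq2, where 0.0281% were. NDUFC1 with 0.22 and NDUFA11 with -0.36 had an unadjusted p under 0.05, 2.47% of the 81 against 2.17% of all genes. The median was 0.06, with 61 higher in KO_WT, beside 0.00 over all genes. It was 0.01 without KO_S47A 2 and 0.13 without KO_S47A 3. The highest differences were those of NDUFB3 at 0.28, UQCRHL at 0.25, NDUFV2 at 0.23, ATP5J at 0.22 and NDUFC1 at 0.22. The lowest were those of NDUFA4L2 at -0.49, NDUFA11 at -0.36, COX7A2 at -0.18, NDUFA13 at -0.17 and COX7A2L at -0.16.

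KO_S404A against KO_WT had the largest median difference of the 7 comparisons between lines, with 0 of the 81 genes called by edgeR, where 0% of all genes were, and 0 by DESeq2, where 0% of all genes were. PNPLA2 stood higher in KO_S404A than in KO_WT by 0.91 on the log2 scale (SE 0.19), though edgeR did not call it (adjusted p = 0.547). The part of PNPLA2 in what follows was not tested. The median log2 difference was -0.19, with 74 of 81 lower, beside 0.01 over all genes. It ran from -0.16 in complexes I and II to -0.21 in complex IV, and all 14 genes of complex IV and all 9 of complex III were lower. An unadjusted p under 0.05 was found for 21, all lower, 25.9% of the 81 against 3.05% of all genes lower at that level. The library ranges of 26 were apart, all lower in KO_S404A, 32.1% against 4.53% of all genes. ATP5J, a coupling subunit in the stalk of ATP synthase, was at 69.5, 68.0 and 69.4 CPM in KO_WT and 56.7, 45.3 and 57.3 in KO_S404A, a log2 difference of -0.38 (SE 0.11, adjusted p = 0.547). SDHB was at 131, 129 and 129.8 in KO_WT and 116, 98.5 and 117 in KO_S404A, a log2 difference of -0.24 (SE 0.09, adjusted p = 0.547). For both genes library 2 of KO_S404A was the lowest, and libraries 1 and 3 were below the KO_WT range as well.

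The size of this shift varied with the libraries used, and the part of a library difference in it was not tested. Leaving out 1 library at a time gave medians from -0.25 to -0.09. Without KO_S404A 2 the median was -0.09 and 2 genes had an unadjusted p under 0.05, and without both low libraries the values were -0.10 and 6. With the length trend removed the median was -0.08 and 7 genes had an unadjusted p under 0.05. The direction of the median was the same in these fits. The lowest differences were those of COX7B2 at -0.47, NDUFB8 at -0.40, ATP5J at -0.38, NDUFB1 at -0.37 and NDUFA5 at -0.35, and among the highest were those of ATP5D at 0.15, NDUFA11 at 0.13, ATP5SL at 0.07 and NDUFV1 at 0.05.

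More of the genes were called by the number of the library than between lines. With the line as a term, libraries numbered 3 against those numbered 1 and 2 gave 12 called genes of the 81, 14.8%, where 46.1% of all genes tested were called. The labels do not say what the numbers stand for. Of the 12 genes 8 were higher in libraries 3: UQCRFS1, the complex I subunits NDUFS3, NDUFA9, NDUFA6 and NDUFC2, UQCR10, ATP5G3 and COX4NB. The other 4, NDUFA4L2, COX7A2L, ATP5G2 and NDUFV1, were lower. The median of the 81 was 0.03, beside -0.02 over all genes.

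NDUFA4L2 differed by far the most of the 81. The libraries held, in the order of their numbers, 7.66, 6.44 and 2.35 CPM in Scramble, 4.23, 3.15 and 1.55 in KO, 8.85, 5.48 and 1.53 in KO_WT, 10.1, 9.94 and 2.30 in KO_S47A, with 8.81, 5.60 and 1.35 in KO_S404A. In each line library 3 was the lowest, and none of these reached a library 1 or 2 of any line. The log2 difference was -1.91 (SE 0.18, adjusted p = 9.31e-07). It made up 0.244% to 1.79% of the NDUFA4 and NDUFA4L2 signal per length, so NDUFA4 was the main form in each library. KO had the lowest NDUFA4L2 among libraries of the same number 1 and of the same number 2. In edgeR's fit without the block its log2 differences between lines were not called, with an adjusted p of 0.728 in KO against Scramble and 0.347 in KO_S47A against KO.

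The stretch upstream of NDUFA4L2 (Entrez gene 56901) is shown because the gene is known as a target of the hypoxia-inducible factor HIF1. It is the first of its 2 starts in RefSeq, chr12:57240763-57240942 on the minus strand of GRCh38.p14. It was searched on both strands for ACGTG and GCGTG, cores of hypoxia response elements, with a match in capitals.
NDUFA4L2: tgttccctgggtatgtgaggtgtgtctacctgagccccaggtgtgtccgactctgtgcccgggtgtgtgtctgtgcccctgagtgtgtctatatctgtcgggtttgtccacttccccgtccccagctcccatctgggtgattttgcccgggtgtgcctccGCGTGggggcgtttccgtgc
It holds 1 match to GCGTG. Over the 250 bases before each start these letters are common, at 43.2% of all 35116 RefSeq windows.

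Among the genes higher in libraries 3, UQCRFS1 was at 214, 217 and 238 CPM in Scramble, 190.3, 221 and 232 in KO, 194, 199.6 and 222 in KO_WT, 169, 158 and 225 in KO_S47A, with 162, 164 and 209 in KO_S404A. Library 3 was the highest in each line. The log2 difference was 0.26 (SE 0.06, adjusted p = 0.00104). NDUFS3 differed by 0.28 (SE 0.07), NDUFA9 by 0.27 (SE 0.06), NDUFA6 by 0.30 (SE 0.08), ATP5G3 by 0.23 (SE 0.06), UQCR10 by 0.18 (SE 0.06), NDUFC2 by 0.15 (SE 0.05) and COX4NB by 0.34 (SE 0.05). COX7A2L was at 116, 125 and 87.1 CPM in Scramble, 87.2, 109 and 93.5 in KO, 132, 120.0 and 95.4 in KO_WT, 151, 139 and 98.2 in KO_S47A, with 129, 87.4 and 91.9 in KO_S404A. Library 3 was the lowest in 3 of the lines, and in KO and KO_S404A it was above the low libraries KO 1 and KO_S404A 2. The log2 difference was -0.34 (SE 0.09, adjusted p = 0.00503).

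Within the c subunit of ATP synthase the genes moved in opposite directions. ATP5G2 fell by 0.19 on the log2 scale (SE 0.05, adjusted p = 0.00866) and ATP5G3 rose by 0.23 (adjusted p = 0.00415), while ATP5G1 was not called. The share of ATP5G2 was 27.5% to 29.0% in the libraries numbered 3 and 29.9% to 36.2% in those numbered 1 and 2. NDUFV1 had -0.12 (SE 0.05, adjusted p = 0.0473), a call that was lost with another scaling, at an adjusted p of 0.0624. Without KO 1 and KO_S404A 2 the number called was 24, 9 higher and 15 lower, where 51.5% of all genes were called, and with the length trend removed it was 24, 12 higher and 12 lower, where 48.3% were.

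**Figure D5:**
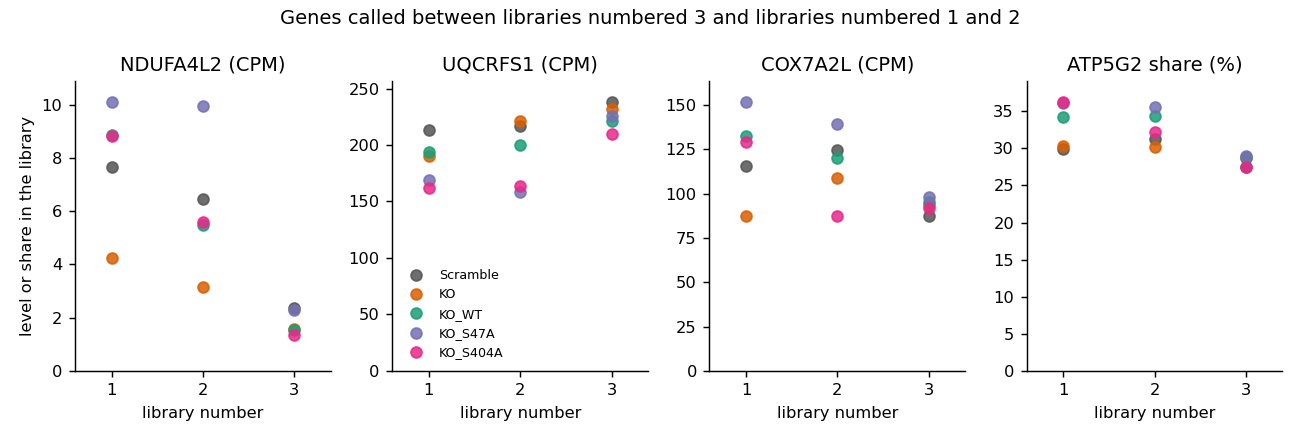
Level in CPM of NDUFA4L2, UQCRFS1 and COX7A2L, and share of ATP5G2 in the c subunit signal in percent (y axes), by library number (x axes), with 1 point per library coloured by line. All libraries numbered 3 lie lowest for NDUFA4L2, at 1.35 to 2.35 CPM, and for the ATP5G2 share, at 27.5% to 29.0%.

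Genes that build or control these complexes were counted for comparison. Of 41 tested assembly factors, 75 tested proteins of the mitochondrial ribosome, which translates the subunits encoded in mitochondrial DNA, and 16 regulators of respiratory gene transcription, 0 were called by edgeR in KO against Scramble, where 2.69% of all genes were, and 2, 1 and 1 of them had an unadjusted p under 0.05, where 12.8% of all genes had. Their medians were -0.02, 0.00 and -0.01. With the block, where 8.29% of all genes were called, COX15, which makes the heme of complex IV, was called higher (adjusted p = 0.0435) and SCO2, a copper chaperone of complex IV, and MRPL40, a protein of the large ribosomal subunit, lower (adjusted p = 0.0436 and 0.0233). In the mean of 4 lines against Scramble, where 6.16% of all genes were called, COX15 was higher by 0.28 (SE 0.07, adjusted p = 0.0234), and MRPL40, also on chromosome 22, was lower, at -0.37 (SE 0.08, adjusted p = 0.0115). The part of chromosome 22 in the values of these lists, SCO2 and MRPL40 among them, was not tested. In KO_S47A against KO 0 genes of the 3 lists were called, and with the block, where 22.1% of all genes were, 3 assembly factors were called lower, 1 ribosomal protein higher and 9 lower, and 1 regulator higher and 1 lower. By library number 46.1% of all genes were called, 22.4% higher and 23.7% lower in libraries 3. Of the 75 ribosomal proteins 39 were called higher and 1, MRPL10, lower. Their median difference was 0.18, beside -0.02 over all genes. Among assembly factors 13 were called higher and 5 lower, and among regulators 5 were called higher, TFAM, PPARGC1A, PPARGC1B, PPRC1 and GABPB1, while MYC and TFB1M were lower.

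A last description concerns sequence that the choice of genes did not use. RefSeq upstream windows of 250 bases were held for 70 of the 87 genes, 84 windows in all, since some genes have several starts. The ETS core CCGGAAG, on either strand, was in 22.6% of the 84 windows, 19 in number from 18 genes, and in 8.52% of all 35116 windows. The NRF1 core was in 3 of the 84, those of ATP5C1, NDUFB4 and SDHD, 3.57% against 1.03%. TATAAA was in 8.33% against 10.7%, and ACGTG or GCGTG in 53.6% against 43.2%. Median GC content was 60.2% against 58.0%. These shares describe letters in windows, not bound sites.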

How the data were processed

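Poly(A) RNA of 15 libraries was sequenced with a directional kit, per the labels. The authors deposited raw read counts per gene and FPKM values for each library; the submitters' processing notes list CASAVA and STAR. Genome build, annotation and strand setting were not given in the sources used here. No coordinates come from the tables, and overlapping or antisense genes cannot be told apart. The deposited FPKM values served only for gene lengths. Unassigned reads, 13.2% to 20.6% of each library, were left out. Chi-square per degree of freedom between libraries of a line was 8.34 or more, and none was merged.

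Counts were fitted in edgeR 4.0.16 (R 4.3.3; filterByExpr, TMM, glmQLFit, glmQLFTest) with 1 mean per line over the 15 libraries and 10 residual degrees of freedom. Calls are at a p under 0.05 after Benjamini-Hochberg adjustment over all 14246 genes of a comparison, and adjusted p-values come from this test unless another is named. SE is the log2 difference over the root of F. Log2 CPM used a prior count of 2. DESeq2 1.42.0, other scaling, no filter, a block, a loess trend on length (span 0.5) and left-out libraries were alternatives. The fit was tested on simulated data.

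Library numbers come from the labels. Deviations from line means of libraries with the same number correlated above 0.1 for all 3 numbers in 8 of the 10 pairs of lines. The lowest was 0.02 between KO_S404A and KO and 0.07 between KO_S404A and Scramble. Deviations cancel within a line, and libraries numbered 3 stood apart in many genes, so libraries 1 and 2 share the opposite deviation. A positive correlation can thus arise without pairing, and the check cannot decide whether libraries were paired. A blocked fit is given where it changes a call between 2 lines that passed this check.

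Members and lists were chosen with earlier results of these data known. Named are all called genes, the 5 highest and 5 lowest differences between lines, the highest and lowest of each complex, paralogous copies, core subunits and genes on chromosome 22; SDHB, COX6A1 and other genes given by library were chosen after their values were seen. 1 gene that the rule names is not reported here.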

Additional observations from a re-analysis of the deposited data

How the results depend on the processing

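COX7B2 was called in KO against Scramble and in the mean of 4 lines against Scramble under every alternative run, and UQCR10 in the latter. With the replicate block 3 of the 81 genes were called in KO against Scramble, 7 in KO_S47A against KO, 8 in the mean of 4 lines against Scramble and 8 in the test among lines, and no other member count moved. For the mean of 4 lines and the test among lines, which use pairs of lines with a correlation under 0.1, the libraries share only a number, and a library correlated best with its own number in 41 of 60 cases. The difference of libraries numbered 3 enters this count, so it cannot show pairing. With the block 14.8% of all genes were called in the mean of 4 lines and 22.9% in the test among lines. The block also called 4 assembly factors, 3 ribosomal proteins and 2 regulators in the mean of 4 lines. On libraries numbered 1 and 2 alone these counts were 2, 5, 9 and 14. DESeq2 called 5 in the mean of 4 lines and 7 among lines. Without the filter, and without KO 1 and KO_S404A 2, 1 gene was called among lines. Leaving out 1 library at a time gave 2 to 5 genes in the mean of 4 lines and 0 to 2 among lines. Between libraries numbered 3 and the others 24 were called with the length trend removed and 24 without the 2 low libraries. With the length trend removed the median of KO_S404A against KO_WT was -0.0782. The cause of these differences was not tested.

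Over all genes edgeR without the block called 383 in KO against Scramble, 4 in KO_WT, 1 in KO_S47A and 3 in KO_S404A against KO, 878 in the mean of 4 lines and 338 among lines. With the block these were 1181, 15, 3150, 14, 2109 and 3256, with DESeq2 693, 8, 33, 8, 1317 and 1076, and on libraries 1 and 2 alone 770, 43, 3098, 403, 1261 and 2518. KO_WT against KO_S47A had 0 calls, 3 with the block, 4 with DESeq2 and 2 on libraries 1 and 2. NDUFA4L2 and COX7B2 had the widest spread of the 81 within a line, and both had few counts. NDUFB8 had fewer counts over all libraries, with an SD of 0.18. In NDUFA4L2 library 3 was the lowest of each line.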
